A study of Homo sapiens with 6 samples.

Results

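DEK peaks were examined at 8 genes of the cytoskeleton and the nuclear lamina: VIM (vimentin), LMNA and LMNB1 (lamins A/C and B1), ACTB and ACTG1 (the cytoplasmic β- and γ-actins), TMSB10 (thymosin β10), PFN1 (profilin) and CFL1 (cofilin). The genes were chosen by name as highly expressed cytoskeletal genes, out of 20163 protein-coding genes in GENCODE release 44 on GRCh37. Earlier results of these data were known when they were chosen. Every DEK peak that overlapped the gene body extended by 10 kb on each side, called the window from here on, was assigned to the gene. This gave 4 of the 15017 peaks of DEK replicate 1 and 72 of the 152779 peaks of DEK replicate 2. The chromatin came from U937, an established human myeloid cell line, and the labels name no treatment, knockdown or transgene. Chromatin from formaldehyde-crosslinked cells was sonicated and precipitated, and the fragments were sequenced. The 6 samples are 2 precipitations with an antibody against DEK, 2 with an antibody against trimethylated lysine 4 of histone H3 (H3K4me3), and 2 samples of non-precipitated chromatin, which were not analysed here. Nothing in the labels says whether the replicates came from separate cultures.

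Vimentin forms the intermediate filaments of mesenchymal and many blood cells, and the lamins form the filament meshwork under the inner nuclear membrane. Actin monomers assemble into filaments; thymosins hold monomers back from assembly, profilin delivers them to growing filament ends, and cofilin severs old filaments. DEK is an abundant non-histone chromatin protein, and H3K4me3 is a histone mark found around the start sites of transcribed genes.

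The 2 DEK lists differ strongly in length and in error estimates, so values were read within a list and never averaged. Peaks of replicate 1 held a median of 47 tags (sequenced fragments counted in the peak) and peaks of replicate 2 a median of 20, at median widths of 1016 bp and 697 bp. Each replicate 1 peak carries a false discovery rate of 100%, against 0.74% to 16.67% in replicate 2. The H3K4me3 lists hold 47523 and 29335 regions without tags or scores. As a check of the cell type, H3K4me3 over a transcription start site (TSS) was counted at marker genes. It lay there at 7 and 6 of 8 myeloid markers in replicates 1 and 2. For markers of other cell types the counts were 2 and 1 of 8. The shares of all protein-coding genes were 59.0% and 55.4%.

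In replicate 1, 4 of the 8 genes (VIM, LMNA, PFN1 and CFL1) had a DEK peak in the window, where 32.6% of all protein-coding genes had one. In replicate 2, all 8 genes had one, as did 90.9% of all genes, so this count says little about these genes. Peaks of both replicates overlapped by at least 1 bp (a shared interval) in the windows of VIM, LMNA and CFL1, which is 3 of 8 against a background of 15.7%. Near a start site the counts were smaller. The middle of a replicate 1 peak lay within 1 kb of a TSS of the same gene for VIM and LMNA, against 8.45% of all genes. In replicate 2 this held for 7 genes, the exception being ACTB, against 56.9%. For shared intervals, too, the genes with a middle at most 1 kb from a TSS of the same gene were VIM and LMNA, against 4.38%. Any annotated start counted, and the genes have from 1 (TMSB10) to 28 (LMNA) of them, with 9 at VIM. No test was made of these counts, since 8 genes are few and were chosen with earlier results known.

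Coverage of the main start site gave another order. A replicate 2 peak lay over the TSS of the canonical transcript in 6 of 8 genes, all but ACTG1 and PFN1, against 28.7% of all genes. A replicate 1 peak did so at VIM alone, against 4.44%. Among the 72 peaks of replicate 2, the middle of 22 lay in the upstream flank, 17 in an intron of the canonical transcript, 16 in the gene body outside the canonical transcript, 13 in the downstream flank and 4 in an exon. For 53 of the 72, the nearest coding TSS belonged to the gene of that window. The other 19 were nearer to a neighbouring gene.

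**Figure D1:**
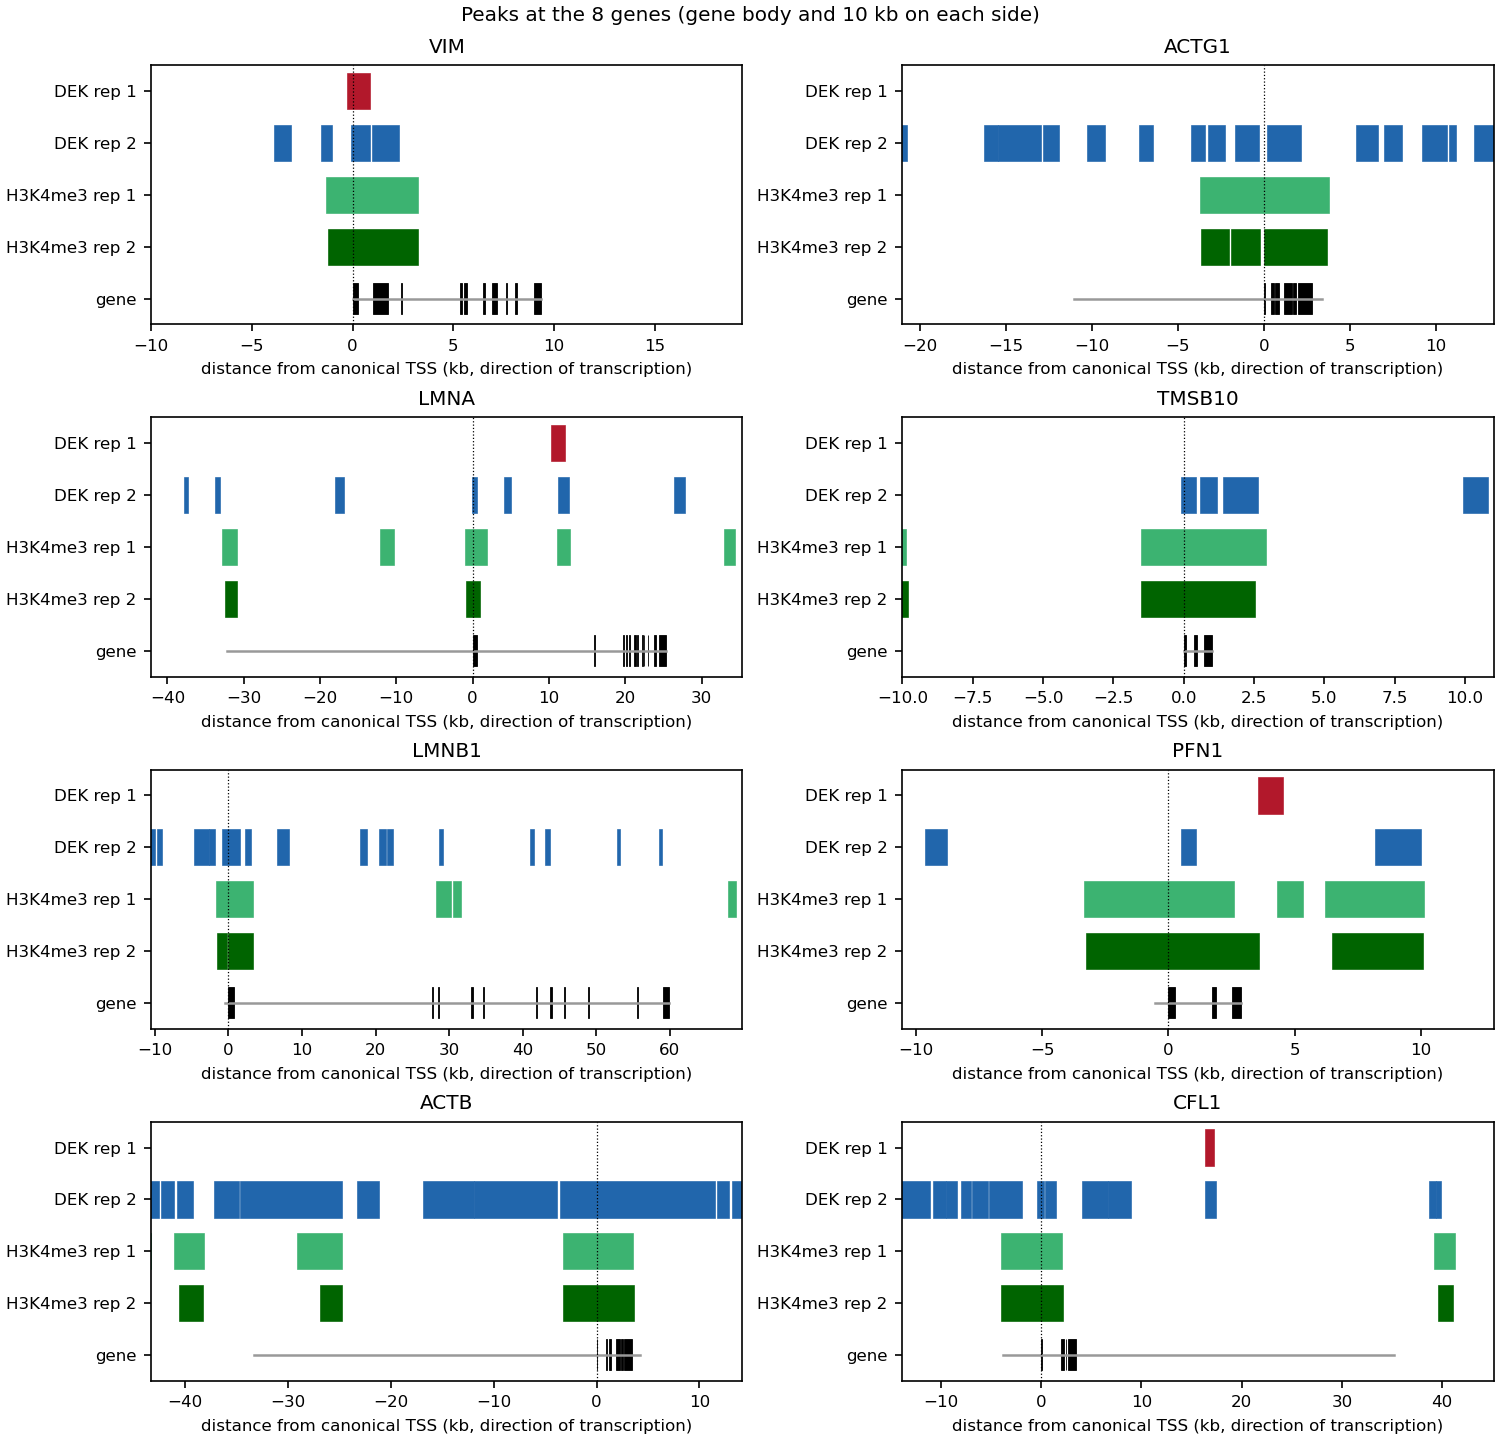
Peaks of DEK replicates 1 and 2 and regions of H3K4me3 replicates 1 and 2 in the windows of the 8 genes, by distance from the canonical TSS in kb along the direction of transcription; the bottom row of each panel shows the gene body as a line and the canonical exons as boxes. VIM has a replicate 1 peak over its TSS, ACTB is covered almost from end to end in replicate 2, and each gene has an H3K4me3 region at the TSS.

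VIM (ENSG00000026025, chromosome 10, 17270240 to 17279592, plus strand) was the only one of the 8 genes at which the DEK peaks of both replicates covered the canonical TSS. Replicate 1 had a single peak in the window, from 17269941 to 17271106, with 84 tags, a score (10 times the negative log10 of the p that the peak caller gave) of 72.4 and a 5.6-fold enrichment over the local background. Replicate 2 had 4 peaks in the window with 19, 26, 37 and 43 tags. The one that met the replicate 1 peak ran from 17270162 to 17271093, with 37 tags, a score of 149.59 and 5.29-fold enrichment, and lay wholly inside it. The summits stood 251 bp and 295 bp downstream of the canonical TSS, 44 bp apart, where the median gap over the 4453 shared intervals was 153 bp. Both summits thus fell in the first part of the gene. By the lower of its 2 scores, each as deposited, the VIM interval ranked 1431 of 4453. The next replicate 2 peak, with the highest tag count of the gene (43), lay further into the gene with its middle in exon 2, and had no partner in replicate 1. The other 2 lay upstream, with their middles 1281 bp and 3484 bp before the TSS.

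The bases before the VIM start site are shown because the replicate 1 peak covered 100% of them and the replicate 2 peak covered 39.0%, those next to the start. They run from 200 bp before the TSS to the last base before it, chr10:17270040-17270239 on the plus strand of GRCh37, written 5′ to 3′; capitals mark a PU.1 core (GAGGAA, here on the other strand) and a GC box (GGGCGG).
VIM: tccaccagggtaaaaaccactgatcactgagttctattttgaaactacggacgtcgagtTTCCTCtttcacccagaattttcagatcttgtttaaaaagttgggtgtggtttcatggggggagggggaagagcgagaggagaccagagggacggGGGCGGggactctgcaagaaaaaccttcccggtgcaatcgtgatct

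The lamin genes differed from each other. LMNA (ENSG00000160789, chromosome 1, 156052364 to 156109872, plus strand), which encodes lamins A and C, had the replicate 1 peak with the most tags among the 8 genes: 98 tags, a width of 1865 bp, a score of 170.45 and 7.69-fold enrichment, from 156094801 to 156096665. The replicate 2 peak that met it, 156095736 to 156097079, had 45 tags, a score of 97.31 and 2.95-fold enrichment. Their shared interval was 930 bp wide and ranked 574 of 4453 by the lower score, the best of the 3 shared intervals at these genes. It did not lie at the canonical TSS. Its middle was 11698 bp downstream, in intron 1 of the canonical transcript, and 136 bp upstream of the start of another LMNA transcript. The summits were 280 bp apart, and the interval took up 49.9% of the replicate 1 peak and 69.2% of the replicate 2 peak. An H3K4me3 region met the interval in H3K4me3 replicate 1 and not in replicate 2. At the canonical TSS itself LMNA had a replicate 2 peak with 19 tags and a score of 71.09, just under the list median of 20 tags, and none in replicate 1. Of the 7 replicate 2 peaks in the window, with 14 to 45 tags, 2 were nearer to the start of the neighbouring gene MEX3A.

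The middle of the LMNA interval is shown because it is the shared peak away from the main start site that lies at an annotated alternative start. The 120 bases are chr1:156096140-156096259 on the plus strand of GRCh37; capitals mark a CCAAT box on the other strand and a PU.1 core (GAGGAA).
LMNA: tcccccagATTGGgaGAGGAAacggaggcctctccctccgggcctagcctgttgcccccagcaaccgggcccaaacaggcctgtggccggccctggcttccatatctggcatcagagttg

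LMNB1 (ENSG00000113368, chromosome 5, 126112315 to 126172712, plus strand), which encodes a lamin of most nucleated cells, had no replicate 1 peak. Replicate 2 had 15 peaks with 12 to 87 tags, and the LMNB1 start was the nearest coding TSS for all 15. The peak over the TSS, 126111940 to 126114454, had the most tags (87) and a width of 2515 bp, at a score of 82.76 and 2.58-fold enrichment. The highest score, 247.31, belonged to a peak in intron 1 from 126119369 to 126121054, with 68 tags. These peaks differed in sequence content: 99.8% of the 24-base words of the TSS peak occur once in the genome, against 33.1% in the intron peak, where 43.4% of the words occur at least 100 times. Such repeated words made up 0.0% of the TSS peak and of the peak from 126165705 to 126166107. In every other LMNB1 peak they made up 24.4% to 48.4%. Of the 15 peaks, 10 had their middle in an intron and 4 in the upstream flank.

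The 2 actin genes differed in the width of their peaks. ACTB (ENSG00000075624, chromosome 7, 5566040 to 5603533, minus strand) had no peak in replicate 1. Replicate 2 had 11 peaks there with 42 to 780 tags, 2115 tags in all, and a median width of 2159 bp. One of them, 5558743 to 5573786, was 15044 bp wide, the fifth widest of 152779, and held 780 tags (rank 23) at a score of 804.73 (rank 277) and 5.99-fold enrichment. It covered the whole canonical transcript, which ends at 5566779. Its summit lay 5871 bp downstream of the TSS, past the end of that transcript. Upstream of it followed peaks of 8076 bp with 300 tags, 4996 bp with 179 tags and, over the outermost ACTB start, 9969 bp with 412 tags (width rank 30). In the wide peak 69.5% of the 24-base words occur once in the genome and 13.0% at least 100 times. The latter share was the lowest among the ACTB peaks, and the others had 16.3% to 44.5%. Because the middle of so wide a peak is 1465 bp from the nearest ACTB start, ACTB is missing from the count of peaks within 1 kb of a TSS although its TSS was covered. Near the end of the window, 2 peaks were closer to the start of FBXL18.

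ACTG1 (ENSG00000184009, chromosome 17, 79476439 to 79490873, minus strand) also had no replicate 1 peak and 15 in replicate 2, with 13 to 92 tags and widths of 392 bp to 2485 bp. None approached the widest peaks at ACTB. The strongest, 79477675 to 79479649, lay inside the gene with 92 tags, a score of 337.78 (rank 1823) and 5.74-fold enrichment. The next by score, 79480083 to 79481521, held 67 tags at a score of 208.59 and lay on the upstream side. The canonical TSS at 79479825 fell in the gap between them, so that both flanks of the start, but not the start itself, were in peaks. In the strongest peak 74.0% of the words occur once in the genome and 0.0% at least 100 times. At the far end of the window, 3 peaks were closest to the start of FSCN2, which encodes an actin-bundling fascin.

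**Figure D2:**
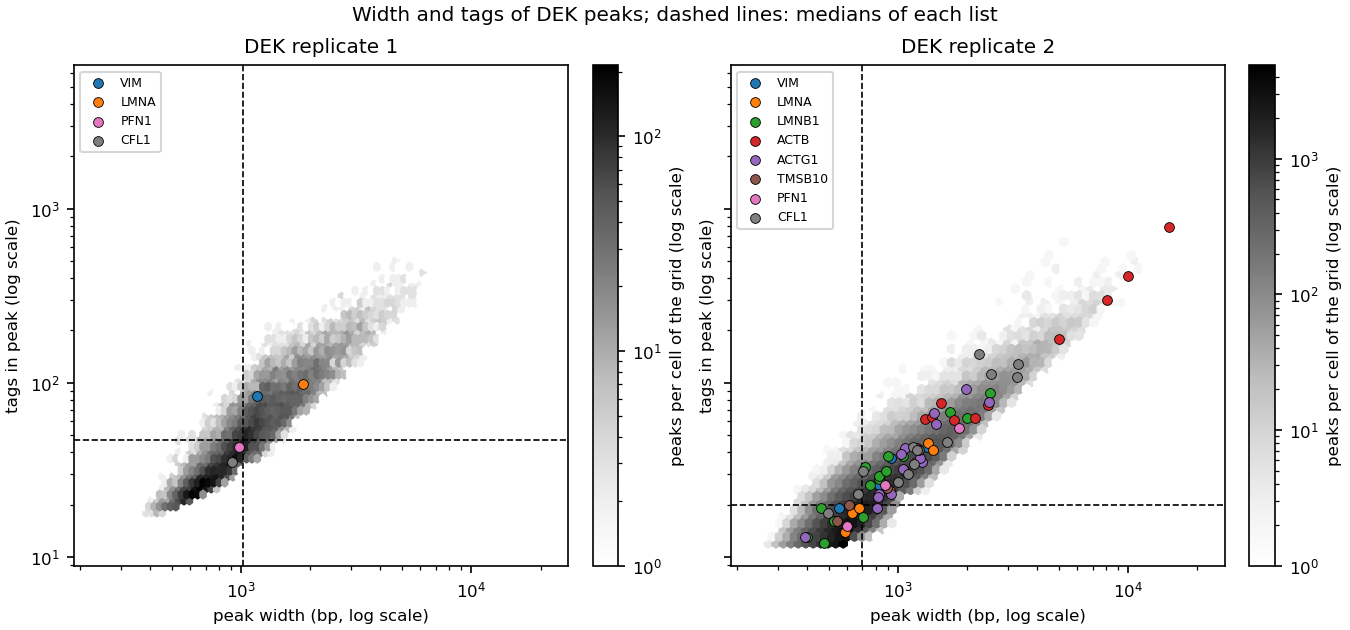
Tags per peak against peak width in bp, both on log scales, for DEK replicate 1 (left) and replicate 2 (right); the grey grid gives the number of all peaks on a log scale, coloured points are the peaks at the 8 genes and dashed lines the medians of each list. The 4 replicate 1 points lie within the main cloud, while 4 peaks of ACTB (179 to 780 tags) extend along its upper end in replicate 2.

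The ACTG1 promoter is shown because this start site lay in a gap between peaks, with 0.0% of its printed bases inside a DEK peak of either replicate. The run is chr17:79479878-79480025, from 200 bp to 53 bp before the TSS, written 5′ to 3′ on the minus strand of GRCh37. Capitals mark the GC boxes, an E-box (CACGTG), the CCAAT box and a CArG box, the binding word of serum response factor.
ACTG1: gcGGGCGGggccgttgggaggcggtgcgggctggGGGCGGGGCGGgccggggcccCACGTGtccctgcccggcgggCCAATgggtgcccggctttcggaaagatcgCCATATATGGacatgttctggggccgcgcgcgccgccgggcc

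Next come the genes that control actin assembly. TMSB10 (ENSG00000034510, chromosome 2, 85132780 to 85133795, plus strand), whose product binds actin monomers, had no replicate 1 peak and 4 in replicate 2, with 16, 20, 25 and 41 tags. The peak over the TSS, 85132677 to 85133216, had the fewest, 16, at a score of 54.97 and 3.18-fold enrichment. The other 3 were nearer to the start of TRABD2A than to that of TMSB10. One of these, with 41 tags and a score of 117.54, was the strongest in the window.

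The TMSB10 promoter is shown for contrast with that of VIM, which holds a single GC box. It is chr2:85132580-85132779 on the plus strand of GRCh37, the 200 bases before the TSS, of which 51.5% lay in the replicate 2 peak; capitals mark GC boxes on either strand, some of which overlap.
TMSB10: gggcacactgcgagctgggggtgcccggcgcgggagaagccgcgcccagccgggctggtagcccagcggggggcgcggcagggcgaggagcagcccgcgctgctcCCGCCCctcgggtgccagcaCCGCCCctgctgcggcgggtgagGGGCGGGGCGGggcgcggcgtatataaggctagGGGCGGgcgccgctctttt

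PFN1 (ENSG00000108518, chromosome 17, 4848947 to 4852356, minus strand), the profilin gene, had 1 peak in replicate 1 and 3 in replicate 2, and none of them met. The replicate 1 peak, 4847302 to 4848282, held 43 tags at a score of 66.37 and 5.11-fold enrichment. It lay beyond the 3′ end of PFN1, 117 bp from a start of RNF167, a ubiquitin ligase gene, and it met an H3K4me3 region in both replicates. In replicate 2 the only peak closest to PFN1, 4850719 to 4851315, held 15 tags at a score of 52.72, with its middle 808 bp downstream of the canonical TSS in intron 1. The remaining replicate 2 peaks, with 26 and 55 tags, were nearest to ENO3 and SLC25A11. PFN1 was thus the gene with the fewest replicate 2 peaks and tags of the 8, 96 tags in all, in a short window of 23410 bp. Per 10 kb of window it had 1.28 replicate 2 peaks, and LMNA had the fewest of the 8 genes, 0.903.

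CFL1 (ENSG00000172757, chromosome 11, 65590493 to 65629497, minus strand), the cofilin gene, had the highest-scoring peak among the 8 genes and the weakest shared interval. The replicate 2 peak from 65616675 to 65618931 had 147 tags, a score of 1003.52 (rank 161 of 152779) and 8.49-fold enrichment. A second peak beside it, 65618994 to 65621525, had 113 tags and a score of 459.29. Their middles lay 7848 bp and 5392 bp downstream of the canonical TSS, past the end of the canonical transcript at 65622144, and 99.9% of the words in each occur once in the genome. Neither had a partner in replicate 1 or an H3K4me3 region. The peak over the TSS, 65625388 to 65626056, was small by comparison, with 23 tags and a score of 54.09. Of the 13 replicate 2 peaks, 3 were nearest to MUS81, 3 to EFEMP2 and 1 to SNX32.

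The shared interval of CFL1 was the one nearest to SNX32. Replicate 1 gave it 35 tags, a score of 52.08 and 3.83-fold enrichment, and replicate 2 gave 30 tags, a score of 107.11 and 4.85-fold enrichment. It ran from 65608412 to 65609293 with summits 223 bp apart, ranked 3940 of 4453 and met no H3K4me3 region. Its middle lay 16799 bp downstream of the canonical TSS and 7377 bp from the nearest coding start, that of SNX32. Repeated sequence moved with this interval: 34.5% of its 24-base words occur once in the genome and 31.0% at least 100 times, against 100% and 0.0% at VIM and 97.2% and 0.331% at LMNA. Whether reads from other copies entered the CFL1 peaks was not tested.

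By the share of the window inside replicate 2 peaks, the genes ran from LMNA (8.74%) through VIM (12.4%), PFN1 (14.2%), TMSB10 (15.6%), LMNB1 (18.0%) and CFL1 (33.8%) to ACTG1 (49.3%) and ACTB (84.5%). The median over the 8 genes was 16.8%, against 7.01% over all protein-coding genes, and all 8 lay above that median. ACTB was exceeded by 9 of 20163 genes. For ACTG1 96.8% of genes had less, for CFL1 91.6%, and for LMNA 57.3%. Replicate 1 coverage gave a different order, with PFN1 at 4.19%, VIM at 3.97%, LMNA at 2.41%, CFL1 at 1.55% and the other 4 genes at 0.0%. With 1 list per replicate there is no spread for either order, and the neighbours between 12.4% and 18.0% cannot be ranked firmly.

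**Figure D3:**
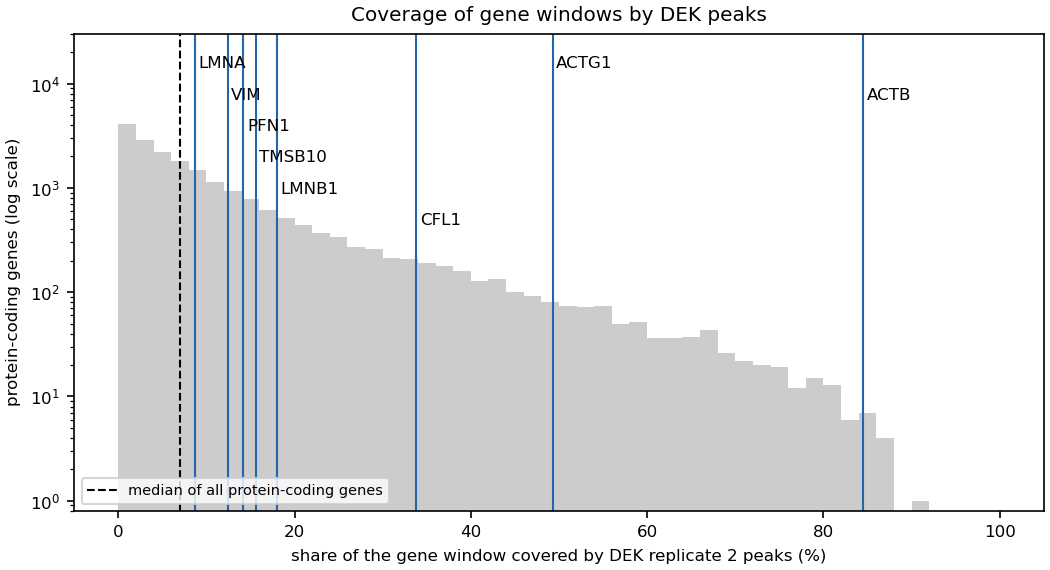
Number of protein-coding genes (log scale) by the share of the gene window in percent that DEK replicate 2 peaks cover; blue lines mark the 8 genes and the dashed line the median of all genes. All 8 lines stand right of the median of 7.01%, and ACTB at 84.5% lies near the end of the distribution.

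The surroundings of the genes were covered to different degrees. In replicate 2, peaks covered 4.32% of chromosomes 1 to 22, X and Y. Around ACTB they covered 61.0% of the next 100 kb on each side and 30.8% of the stretch from 100 kb to 1 Mb. For ACTG1 these shares were 37.0% and 44.1%, the second close to that of the ACTG1 window itself, and for CFL1 27.4% and 24.8%. VIM, by contrast, stood at 12.4% in its window but 3.77% and 2.88% around it, and LMNB1 at 18.0%, 8.58% and 2.25%. The surroundings of LMNA were covered to 7.31% and 7.7%, those of TMSB10 to 5.68% and 7.64%, and those of PFN1 to 10.0% and 8.2%. The share of G and C in the window was 57.7% for ACTG1, 55.7% for PFN1, 54.9% for ACTB, 53.0% for LMNA, 51.3% for CFL1, 46.3% for TMSB10 and 43.0% for VIM and LMNB1, against 40.9% of the genome. In the windows, LMNA and PFN1 were richer in G and C than CFL1 and less covered. With 1 Mb on each side the order by G and C changed. ACTG1, CFL1 and ACTB then stood highest, and LMNB1, whose window was more covered than those of VIM, TMSB10, PFN1 and LMNA, stood lowest. The shares of G and C were then 55.2% for ACTG1, 51.0% for CFL1, 49.1% for ACTB, 48.3% for LMNA and 47.7% for PFN1. TMSB10 had 43.0%, VIM 40.3% and LMNB1 39.4%. In replicate 1 the ACTB region was the other way round, with 0.0% in the next 100 kb and 2.47% from there to 1 Mb, against 0.584% of the genome. The part of the surrounding region and of base composition in the coverage of ACTB, ACTG1 and CFL1 was not tested.

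**Figure D4:**
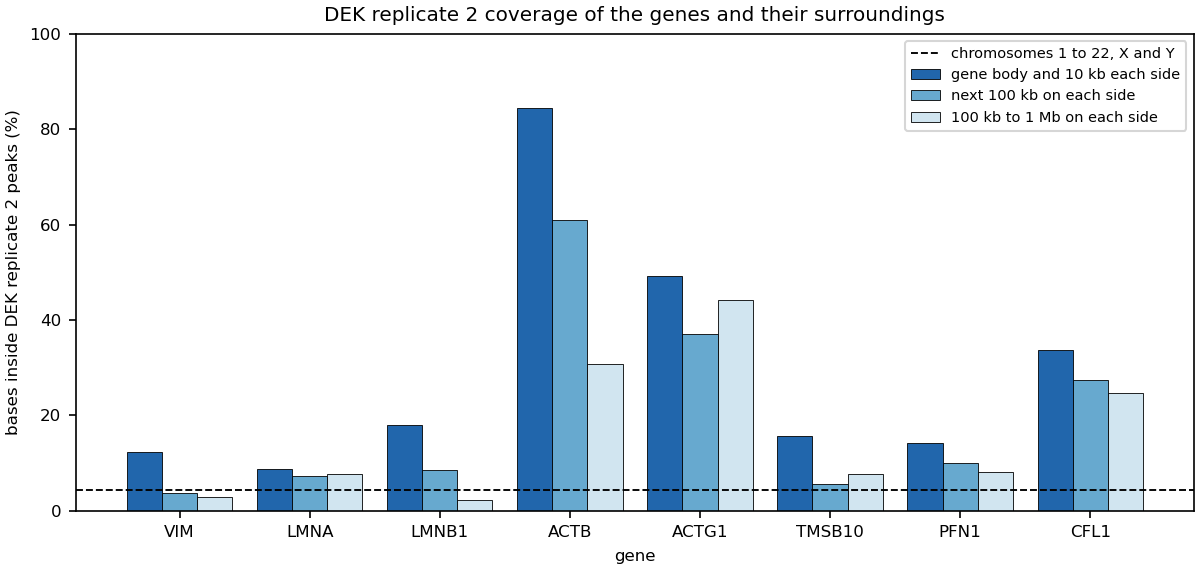
Share of bases in percent inside DEK replicate 2 peaks for the window of each gene, for the next 100 kb on each side and for the stretch from 100 kb to 1 Mb on each side; the dashed line is the share of chromosomes 1 to 22, X and Y. ACTB falls from 84.5% to 30.8% with distance, ACTG1 stays between 37.0% and 49.3%, and VIM drops below the dashed line outside its window.

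H3K4me3, which the choice of the genes did not use, lay over a TSS of all 8 genes in replicate 1, against 59.0% of protein-coding genes, and of all 8 in replicate 2, against 55.4%. The regions over the canonical TSS were broad at most of these genes. In replicate 1 they were 4565 bp wide at VIM, 2862 bp at LMNA, 4981 bp at LMNB1, 6847 bp at ACTB, 7521 bp at ACTG1, 4435 bp at TMSB10, 5951 bp at PFN1 and 6123 bp at CFL1. In replicate 2 the same genes had 4433 bp, 1798 bp, 3343 bp, 6912 bp, 3702 bp, 4061 bp, 6854 bp and 6239 bp. The median of all genes with such a region was 2920 bp (10830 genes) in replicate 1 and 2820 bp (10005 genes) in replicate 2, and 7 of the 8 genes exceeded it in each, LMNA being the exception. ACTB, PFN1 and CFL1 were wide in both replicates. The shares of those genes below them were 98.2%, 96.6% and 97.1% in replicate 1 and 98.9%, 98.8% and 98.2% in replicate 2. At ACTG1 the replicate 2 region ended 13 bp upstream of the TSS, and another region followed it further upstream.

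**Figure D5:**
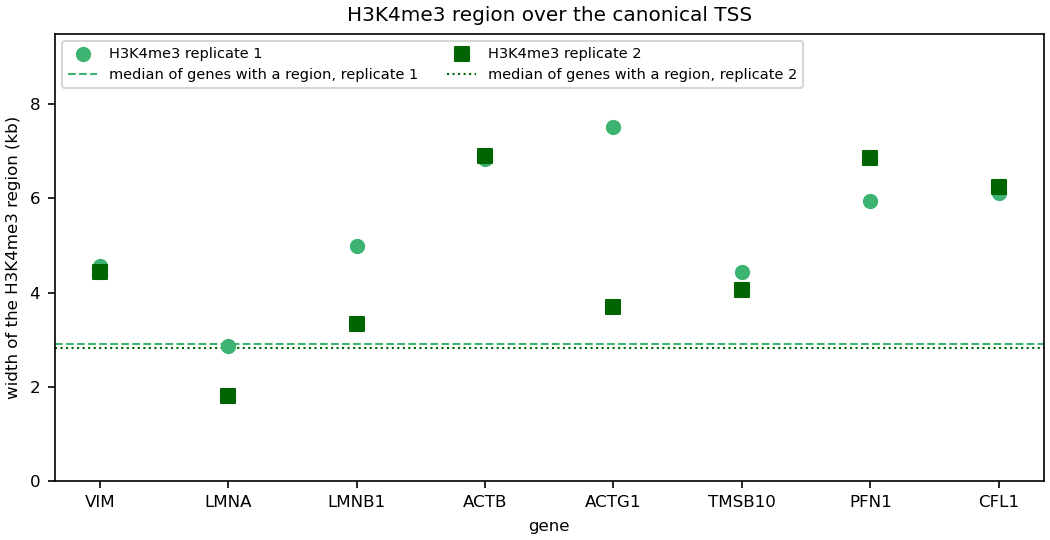
Width in kb of the H3K4me3 region over the canonical TSS of each gene in H3K4me3 replicate 1 (circles) and replicate 2 (squares); the dashed and dotted lines are the medians of all genes with such a region. ACTB, PFN1 and CFL1 stand high in both replicates, ACTG1 differs most between them and LMNA lies below both medians.

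DEK replicate 2 peaks filled these regions to very different degrees. They covered 100% of the ACTB region in both H3K4me3 replicates, 68.6% and 76.2% of that of LMNB1, 63.8% and 62.5% of that of CFL1, and 63.1% and 53.3% of that of ACTG1. VIM had 56.9% and 55.7%, TMSB10 53.7% and 56.4%, and LMNA 23.6% and 37.5%. At PFN1, whose region was among the widest, the shares were 10.0% and 8.71%. A wide H3K4me3 region therefore went with full DEK coverage at one gene and with little at another. Of the 72 replicate 2 peaks at the 8 genes, 27 (37.5%) met an H3K4me3 region of replicate 1 and 22 (30.6%) one of replicate 2, against 10.7% and 8.05% of all replicate 2 peaks on chromosomes 1 to 22, X and Y. The 2 sets are not alike, since every window holds an H3K4me3 region over a TSS and the full list spans whole chromosomes. The peaks at the 8 genes were also wider, with a median of 1071 bp against 697 bp. The higher shares therefore cannot be read as a trait of these peaks. Peaks of one gene share its start site and are not independent.

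The promoter sequence, from 250 bp before to 50 bp after the canonical TSS, was searched on both strands for 8 words. The CArG box occurred in ACTB and in ACTG1, where it started 94 bp before the TSS, against 1.2% of all 20163 promoters. The exact TATA box word TATAAA occurred in ACTB alone of the 8, against 9.8%, and other forms of this box were not searched. A GC box occurred in all 8, against 60.9%, and a CCAAT box (CCAAT) in LMNA, LMNB1, ACTB, ACTG1 and CFL1, against 35.9%. The PU.1 core was found at VIM, LMNB1 and ACTB, against 27.2%, the AP-1 word (TGANTCA) at LMNA, against 5.42%, the E-box at LMNB1 and ACTG1, against 8.74%, and the CRE (TGACGTCA) at none, against 2.68%. G and C content was lowest in the promoter of VIM, 48.0%, with 13.7% of all promoters below it, and highest in that of ACTG1, 77.3%, with 91.0% below. The content did not sort the genes by a peak over the start: TMSB10 had one at 75.3%, and PFN1, like ACTG1, had none at 61.3%. A match of letters is a description and not a binding site.

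Relatives and partners of these proteins were counted in the same way. Among 18 genes of the same families, such as other intermediate filament, muscle actin, thymosin, profilin and cofilin genes, 4 had a peak in replicate 1, 16 in replicate 2 and 2 a shared interval, where the shares of all genes were 32.6%, 90.9% and 15.7%. Only that of TMSB4X had its middle within 1 kb of the gene's own TSS, as in 4.38% of all genes. TMSB4X is the X-linked gene of thymosin β4, and its interval is on chromosome X, 12992474 to 12994544, with its middle 146 bp from a TSS, 128 tags and a score of 210.87 in replicate 1 and 56 tags and a score of 121.04 in replicate 2. Both its tag counts exceed those at VIM, whereas TMSB10 of the same family had no replicate 1 peak. H3K4me3 lay over a TSS of 6 of these 18 genes in each replicate, against 59.0% and 55.4% of all genes, and their median window coverage by replicate 2 peaks was 6.87%, against 7.01%.

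Of 26 partner genes, which encode actin-regulating proteins and proteins of the lamina and inner nuclear membrane, 14 had a peak in replicate 1, against 32.6% of all genes, all 26 in replicate 2, against 90.9%, and 7 a shared interval, against 15.7%. All 26 carried H3K4me3 at a TSS in both replicates, against 59.0% and 55.4%, and their median window coverage was 16.8%, the same as for the 8 genes. For 5 of them the middle of a shared interval was within 1 kb of a TSS of the gene, against 4.38% of all genes. ZMPSTE24, the protease that matures lamin A, had 122 and 87 tags in replicates 1 and 2 at scores of 76.97 and 248.73. TPM3 and TPM4 encode tropomyosins that coat actin filaments. TPM3 had 122 and 34 tags at scores of 127.97 and 52.01, and TPM4 99 and 49 tags at 126.96 and 75.52. VASP, a filament elongation factor, had 109 and 26 tags at scores of 59.43 and 68.11. ACTN4, an actin cross-linker, had 63 and 16 tags at scores of 53.13 and 52.12. Its interval was narrow, from 39154885 to 39154939 on chromosome 19. No replicate 1 peak had its middle within 1 kb of an ACTN4 start.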

How the data were processed

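DEK and H3K4me3 were measured by ChIP-seq in U937 cells, with 2 precipitations each, and the 2 samples of non-precipitated chromatin were not analysed here. Reads were mapped by the authors to hg19 (Bowtie 2), and DEK peaks were called for every precipitation on its own, without pooling, by MACS 1.4.1 with its default settings. For each DEK peak the deposited lists give the count of tags, not normalized to depth, and a score, −log10 of the peak's p-value multiplied by 10. The deposited fold enrichment is a ratio over the local background of MACS, and false discovery rates were deposited in percent. The deposited H3K4me3 lists hold chromosome, start and end only. The labels name Bowtie2 and MACS 1.4.1 for them, and their settings are not given in the sources used here.

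Depth per sample is not in the files, which limits what can be said of an absent peak. Tags in peaks summed to 988363 in DEK replicate 1 and 4172422 in replicate 2. With 2 replicates no spread between them was estimated. The 8 genes, the lists of 18 family and 26 partner genes, the marker lists and the tests were chosen with earlier results of these data known, so no test was made and counts are set beside the share of all 20163 protein-coding genes. Windows, start sites and canonical transcripts came from GENCODE release 44 on GRCh37, which has the sequence of hg19 (0 peaks ran past the end of any of 24 chromosomes). Positions are 1-based. Peaks of both replicates were intersected at an overlap of at least 1 bp, and distances run from the middle of a peak, or from its summit where stated. Sequences were read from GRCh37, without bases of untranslated regions. Some sequences are not reported here. Words of 24 bases were counted over the whole genome on both strands. Text names the 8 genes, the nearest genes of peaks in their windows and, from both lists, genes with a shared interval within 1 kb of their own TSS. Python 3.11.15, NumPy 2.4.6, pandas 2.3.3 and Matplotlib 3.10.9 were used. On simulated data 4 of 4 checks passed. Alternatives were other flanks, overlaps, scores, list lengths, start sites and each replicate alone.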

Additional observations from a re-analysis of the deposited data

How the results depend on the processing

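No paired analysis was possible because no result comes from a test. Under other settings 30 values moved and 24 did not, by limits that differed between kinds of value. A count moved when it changed by more than a set factor. A share of all genes moved when it left the confidence interval of the main share, and window coverage moved at any change. Every share of all genes and every window coverage moved under these limits. In replicate 1, a score of at least 100 left 1 of the 8 genes with a peak, LMNA, and a flank of 20 kb raised the peaks there from 4 to 7. In replicate 2, cutting the list by score to the length of replicate 1 left 4 genes, LMNB1, ACTB, ACTG1 and CFL1, and the gene body alone held 37 peaks instead of 72. The number of genes with a shared interval was 5 with a flank of 20 kb, but 0 with a score of at least 100 and 0 with the cut list. All 3 shared intervals thus rest on peaks with a score under 100 in one replicate. Asking that 50% of each peak overlap kept VIM and CFL1 and lost LMNA. Shared intervals within 1 kb of a start were at 1 gene with the outermost TSS and at 1 with the canonical TSS, and from each replicate alone at 2 to 7 genes, the higher with replicate 2. The background share of genes, with the gene body alone, 5 kb and 20 kb, was 24.9%, 29% and 38.8% in replicate 1, 81.6%, 88.1% and 93.8% in replicate 2, and 11.6%, 13.8% and 19.1% for shared intervals. The canonical TSS, the peaks over it and the window coverage were added after seeing the data. Replicate 2 peaks over the canonical TSS lay at 2 genes with a score of at least 100 and at 1 with the cut list, instead of 6. With that score, coverage fell to 71.2% at ACTB, 27.5% at ACTG1 and 16.7% at CFL1. The causes were not tested. The unknown depth limits any statement that a gene lacked a peak. The false discovery rate of 100% in replicate 1 limits any statement that a gene had a peak there. It holds for the replicate 1 peak in each of the 3 shared intervals.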

Other observations

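Actin genes have many processed pseudogenes, which are retrotransposed copies of their mRNA elsewhere in the genome. GENCODE names 54 pseudogenes after the 8 genes: 21 of ACTG1, 12 of ACTB, 11 of PFN1, 8 of CFL1 and 2 of TMSB10. A replicate 2 peak overlapped 14 of them (25.9%), 7 of ACTG1, 6 of ACTB and 1 of PFN1, against 14.7% of all 10587 processed pseudogenes. In replicate 1 a peak overlapped 2 (3.7%), 1 each of ACTB and ACTG1, against 1.36%. These shares were not tested.

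Of the 72 replicate 2 peaks at the 8 genes, 42 hold some 24-base words that occur at least 100 times in the genome, and in 31 of them such words make up at least 25% of the peak. The median share was 12.05% and the highest 52.0%, in the narrowest peak of the ACTG1 window. The share over all replicate 2 peaks was not computed, so these counts cannot be read as particular to the 8 genes.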
